A study of Homo sapiens with 12 samples.

Results

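The E-protein and ID genes comprise 3 E proteins (TCF3, TCF4 and TCF12) and 3 ID inhibitors (ID1, ID2 and ID3). Their rows were taken by gene symbol from the deposited table of 34694 gene means, and all 6 genes were found, with 10 probes. Expression was measured on 12 Illumina BeadChip arrays in acute lymphoblastic leukemia (ALL) cell lines, 2 of T-ALL (Jurkat and Molt4) and 2 of B-cell precursor or BCP-ALL (Nalm6 and RS4;11). Each line was transduced with a lentiviral pLKO1-mCherry vector that carried shCREB3, shCREB2 or shControl (the scrambled shRNA), and stably transduced cells were expanded. The first 2 of these shRNAs are directed at CREB1, the gene of the transcription factor CREB. There was 1 array for each vector in each line, so the cell line is the replicate (n = 4), and precision is limited by this number.

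E proteins are basic helix-loop-helix transcription factors that bind as dimers to E-box DNA motifs. In the developing lymphocyte, TCF3 and TCF12 drive genes of the B and T lineages, among them those of antigen receptor rearrangement, and TCF4 is known for its role in plasmacytoid dendritic cells and B cells. ID proteins carry the helix-loop-helix but no basic DNA-binding region, so they pair with E proteins and keep them off DNA. ID1 and ID3 are targets of BMP and SMAD signalling, ID3 is induced through EGR factors downstream of the pre-TCR, and ID2 is required for innate lymphoid and NK cells.

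All values are log2 signals after quantile normalization of the 12 arrays, and a probe counted as detected at a detection p-value under 0.01. Between 14244 and 15586 probes were detected per array, and 12480 genes were tested. For Nalm6 with shCREB2, the highest correlation to any array was only 0.970, against at least 0.987 for each of the other 11 arrays. Many but not all results that rest on it are also given without it. CREB1 mRNA was not lower on the arrays labelled shCREB3 and shCREB2 (log2 difference to shControl 0.29 with shCREB3 and 0.08 with shCREB2, adjusted p = 0.17 and 0.65 from limma), so every direction below is that of the arrays as labelled. By Western blot the study reported lower CREB protein in each of these lines, to a variable degree. The arrays do not measure protein. Lineage markers mostly followed the labels. Of 9 T-cell markers, Jurkat and Molt4 had 9 each detected on all 3 arrays, Nalm6 had 2 and RS4;11 had 3. Of 9 B-cell markers, Jurkat had 2, Molt4 had 4, Nalm6 had 8 and RS4;11 had 7, and PAX5 was detected in no line. No line had more than 3 of 8 myeloid, 1 of 5 erythroid or 1 of 6 markers of the virus packaging cells on all 3 arrays.

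TCF3, TCF12, ID2 and ID3 were detected on 12 of 12 arrays, whereas ID1 and TCF4 were detected on 6 each. ID1 passed the filter, which asks for detection on at least 4 arrays, only through the T-ALL lines, and TCF4 only through Nalm6 and Molt4. Changes of ID1 with an shRNA were therefore measurable in Jurkat and Molt4 alone, and those of TCF4 in Nalm6 and Molt4 alone.

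**Figure D1:**
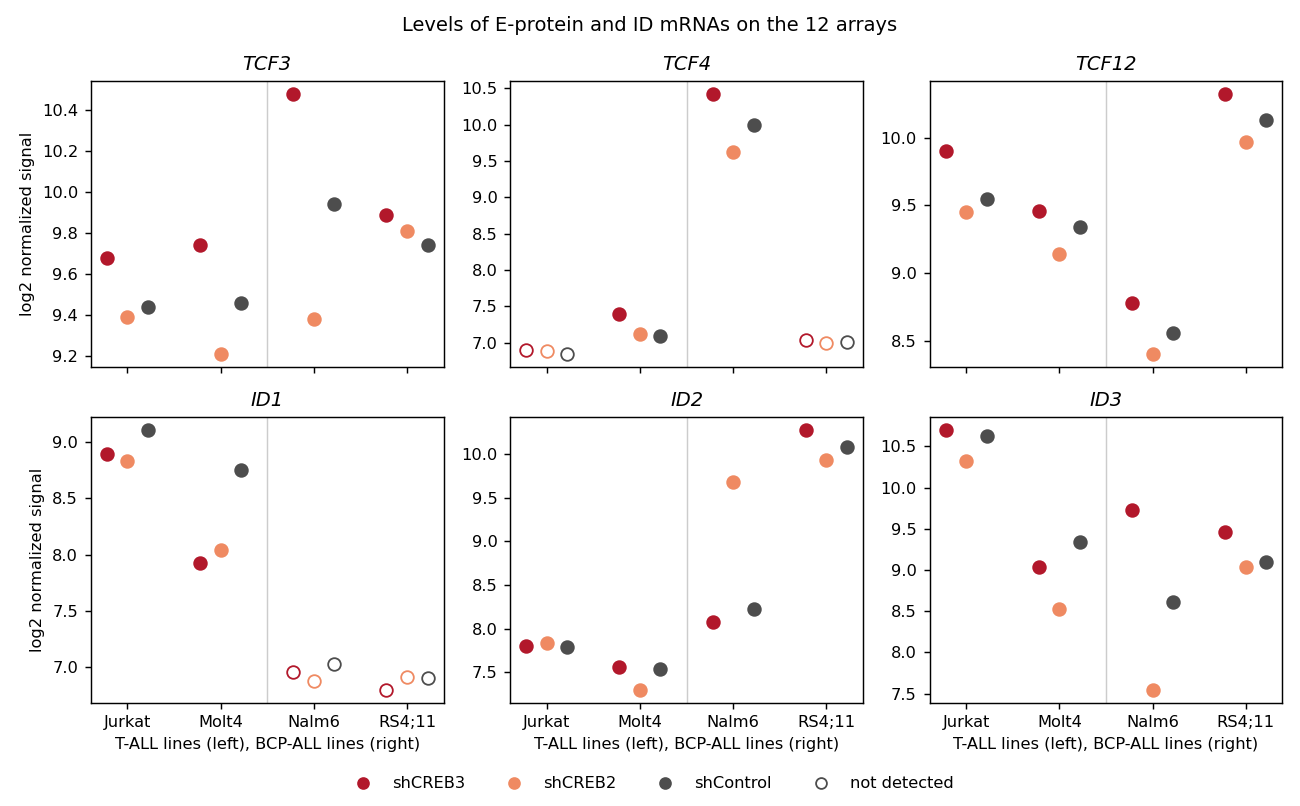
Log2 normalized signal (vertical axis, own scale per gene) of each E-protein and ID gene on the 12 arrays, by line (horizontal axis) and vector (colour, shCREB3, shCREB2 and shControl side by side). Filled points are arrays with a detection p-value under 0.01 and open points are arrays without detection. ID1 is filled in Jurkat and Molt4 only, and TCF4 reaches 9.62 to 10.42 in Nalm6 and stays at or below 7.39 elsewhere.

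The lines differed in which members were detected. Over the 6 pairs of lines, 24 of 36 tests of members passed at an adjusted p under 0.05 from limma, beside 47.3% of all tests of genes between lines. Of these 24, 4 set ID1 and 2 set TCF4 against a line without detection, where the filter had kept the gene for its high lines, so they give bounds only. The 3 arrays of a line hold 3 vectors, so these p-values measure the spread between arrays and not between independent cultures. The levels of 1 gene are compared between lines only, since signals of different probes are not on a common scale.

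TCF4 had the widest range of line means. Its log2 signal in Nalm6 was 10.42 with shCREB3, 9.62 with shCREB2 and 10.00 with shControl. In Molt4 the log2 signal of TCF4 was 7.39 with shCREB3, 7.12 with shCREB2 and 7.09 with shControl, close to the limit of detection. All 3 arrays of Jurkat (at most 6.90) and of RS4;11 (at most 7.04) were without detection. Nalm6 exceeded Molt4 by 2.81 on the log2 scale (standard error 0.13, adjusted p = 4.91e-08 from limma), with no overlap of arrays. Against lines without detection only a lower bound can be given, set at the lowest signal among detected probes of each array. TCF4 was at least 7.7-fold higher in Nalm6 than in Jurkat (measured means 10.01 and 6.88) and at least 7.69-fold higher than in RS4;11 (7.02).

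TCF12, known as HEB and prominent in the thymus, had a different order of lines. RS4;11 was highest, with log2 signals of 10.32 with shCREB3, 9.97 with shCREB2 and 10.13 with shControl. Jurkat followed with TCF12 at 9.90, 9.45 and 9.55 in the same order of vectors. Molt4 had TCF12 at 9.46, 9.14 and 9.34, and Nalm6 was lowest at 8.78, 8.41 and 8.56. Each line passed the test against the next in this order. RS4;11 exceeded Jurkat by 0.51, Jurkat exceeded Molt4 by 0.32 and Molt4 exceeded Nalm6 by 0.73 on the log2 scale (standard error 0.06 each, adjusted p of 7.07e-05, 0.0016 and 4.97e-06 from limma). The arrays of Jurkat and Molt4 overlapped, and those of the other neighbours did not.

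TCF3, whose products activate early B-cell genes, varied least between lines. In Nalm6 its log2 signal was 10.48 with shCREB3, 9.38 with shCREB2 and 9.94 with shControl, and in RS4;11 it was 9.89, 9.81 and 9.74. Jurkat had TCF3 at 9.68, 9.39 and 9.44, and Molt4 had it at 9.74, 9.21 and 9.46. No neighbours in the order Nalm6, RS4;11, Jurkat, Molt4 passed the test (differences of 0.12, 0.31 and 0.03, adjusted p of 0.53, 0.11 and 0.87 from limma), while Nalm6 exceeded Jurkat and Molt4 (adjusted p of 0.034 and 0.024). The range over vectors within Nalm6, 1.10 on the log2 scale, was wider than the 0.46 between the means of Nalm6 and Molt4.

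ID1, the ID gene most tied to BMP signalling, was detected in the T-ALL lines only. Jurkat had ID1 log2 signals of 8.90 with shCREB3, 8.83 with shCREB2 and 9.11 with shControl. Molt4 had 7.93, 8.04 and 8.75 in the same order. All 6 BCP-ALL arrays lay between 6.80 and 7.03, without detection. The mean of ID1 in the T-ALL lines was thus at least 2.85-fold above that in the BCP-ALL lines (measured means 8.59 and 6.91). By line, the bound over Nalm6 was 3.62-fold for Jurkat and 2.21-fold for Molt4. Over RS4;11 it was 3.67-fold and 2.24-fold. In such bulk RNA, fewer expressing cells and less RNA per cell cannot be told apart. The test between the lineages, with 2 lines each, did not pass (adjusted p = 0.13 from limma). Between the T-ALL lines, Jurkat exceeded Molt4 by 0.71 on the log2 scale (standard error 0.13, adjusted p = 0.0014 from limma).

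ID2, the ID gene of NK and innate lymphoid cells, was highest in RS4;11. There its log2 signal was 10.28 with shCREB3, 9.94 with shCREB2 and 10.08 with shControl. Nalm6 had ID2 at 8.08 with shCREB3, 9.68 with shCREB2 and 8.23 with shControl. The single array of Nalm6 with shCREB2, which is also the array that stood apart, was far above the other arrays of that line. Jurkat had ID2 at 7.80, 7.84 and 7.79, and Molt4 had it at 7.56, 7.30 and 7.54. RS4;11 exceeded Nalm6 by 1.44 on the log2 scale (standard error 0.31, adjusted p = 0.0035 from limma). Without the array of Nalm6 with shCREB2 this difference was 1.99 (adjusted p = 1.86e-08 from limma). The difference of 0.85 between Nalm6 and Jurkat (adjusted p = 0.0456 from limma) was 0.30 without the array of Nalm6 with shCREB2 (adjusted p = 0.023). It passed in 8 of 22 settings, and not with median scaling (adjusted p = 0.064) or the deposited means (0.063).

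ID3, which restrains E proteins at the pre-TCR checkpoint in thymocytes, was highest in Jurkat, with log2 signals of 10.70 with shCREB3, 10.32 with shCREB2 and 10.63 with shControl. RS4;11 followed with ID3 at 9.46, 9.04 and 9.10. Molt4 had ID3 at 9.04, 8.53 and 9.34, and Nalm6 had it at 9.73, 7.55 and 8.61. Nalm6 alone spanned 2.18 on the log2 scale between vectors, so its arrays overlapped with those of Molt4 and RS4;11. Jurkat exceeded RS4;11 by 1.35 (standard error 0.30, adjusted p = 0.0037 from limma), whereas RS4;11, Molt4 and Nalm6 did not differ as neighbours (0.23 and 0.34, adjusted p of 0.56 and 0.38).

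Between the T-ALL and BCP-ALL lines, 0 of 6 members passed the test of the level (limma on 4 line means, n = 2 lines each), beside 1.05% of all genes. An unadjusted p under 0.05 was found for 3 members, ID1, ID2 and TCF3, beside 17.2% of all genes. The filter had kept ID1 for its T-ALL lines alone, so its place in this count carries no weight. The T-ALL minus BCP-ALL difference was −1.74 for ID2 on the log2 scale (standard error 0.54, adjusted p = 0.25) and −0.39 for TCF3 (standard error 0.11, adjusted p = 0.24). It was 0.85 for ID3 (standard error 0.61), 0.11 for TCF12 (standard error 0.58) and −1.47 for TCF4 (standard error 1.08), the last resting on Nalm6 alone. Without 1 of the BCP-ALL lines the other stood alone and was assumed to vary as the T-ALL lines do. In such fits ID2 passed without Nalm6 (−2.46, adjusted p = 0.044 from limma, among 279 genes called) and TCF4 passed without RS4;11 (among 283 genes called), with no detection of TCF4 in Jurkat. TCF12 turned to −0.67 without Nalm6. ID1 passed in the shControl arrays alone and after background correction, each time without detection in the BCP-ALL lines.

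With the CREB shRNAs set against shControl, no member passed the test. For the average of both shRNAs over 4 lines, 0 of 6 members passed in limma, beside 1.11% of all genes, and 1 member, ID1, beside 22% of all genes had an unadjusted p under 0.05. ID1 had a log2 difference of −0.29 (standard error 0.11, 95% confidence interval −0.55 to −0.04, adjusted p = 0.18 from limma). It was −0.13 without Molt4 (adjusted p = 0.41). The averaged difference of ID1 was −0.24 in Jurkat and −0.76 in Molt4, the lines where it was detected. ID1 was the 1 member lower in 4 of 4 lines, beside 14.5% of all genes, but the values of Nalm6 and RS4;11 (−0.11 and −0.05) come from arrays without detection. The averaged differences of the other members were 0.15 for ID2, −0.12 for ID3, 0.05 for TCF3, 0.06 for TCF4 and 0.03 for TCF12, with adjusted p of 0.48 to 0.76 from limma.

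**Figure D2:**
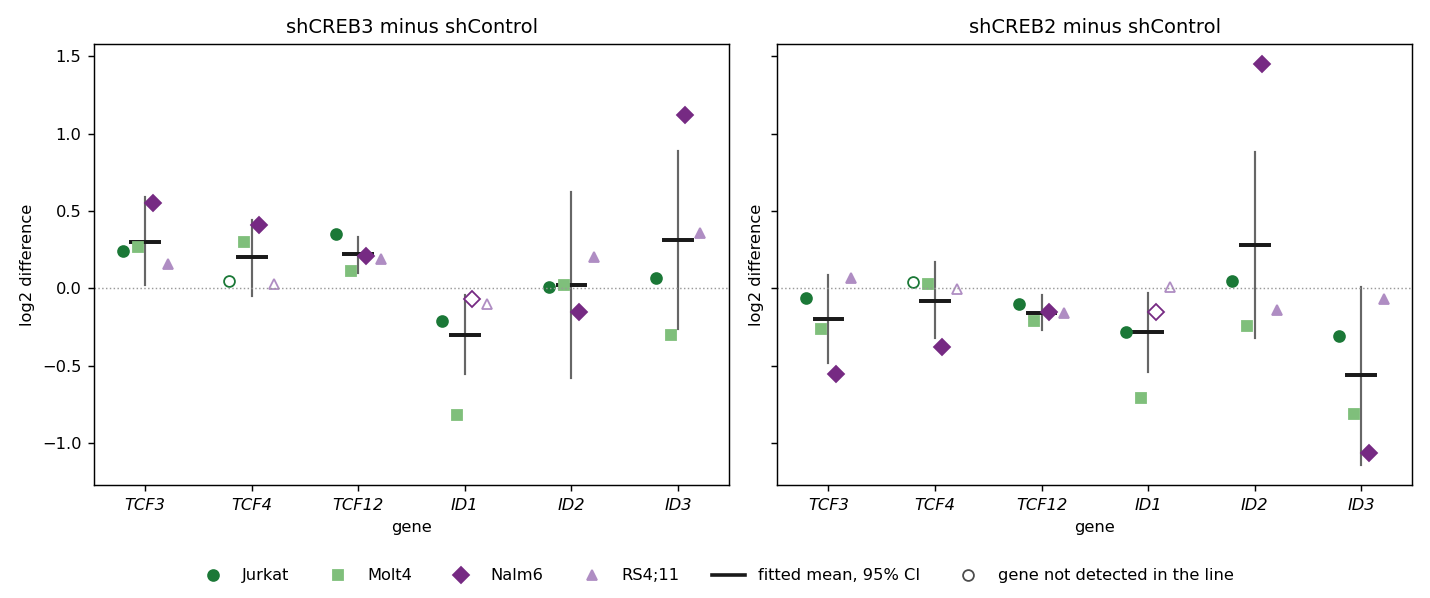
Log2 difference to the shControl array of the same line for shCREB3 (left) and shCREB2 (right), for each E-protein and ID gene. Symbols are the 4 lines (open where the gene was not detected in the line), short bars the fitted mean and vertical lines its 95% confidence interval. For TCF12 the 4 lines lie at 0.11 to 0.35 with shCREB3 and at −0.21 to −0.10 with shCREB2, while ID2 in Nalm6 reaches 1.45 with shCREB2.

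For shCREB3, 0 of 6 members passed, beside 1.63% of all genes, and for shCREB2 0 of 6, beside 8.12%. The E proteins TCF12 and TCF3 were measured above shControl with shCREB3 in 4 of 4 lines. The share of all genes that did so was not counted, so this is not read as particular to them. TCF12 had log2 differences of 0.22 for shCREB3 and −0.16 for shCREB2 (standard error 0.05 each, adjusted p of 0.0745 and 0.10 from limma). Its lines lay at 0.11 to 0.35 with shCREB3 and at −0.21 to −0.10 with shCREB2. TCF3 had 0.30 for shCREB3 (standard error 0.13, adjusted p = 0.25) and −0.20 for shCREB2 (standard error 0.13, adjusted p = 0.37). The shCREB3 and shCREB2 values share their shControl arrays. Without the array of Nalm6 with shCREB2, which enters the spread of the common fit, TCF12 and TCF3 passed for shCREB3 (2 of 6), where 838 of 12480 genes passed, against 204 with that array.

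Among the inhibitors, ID1 had differences of −0.30 for shCREB3 and −0.28 for shCREB2 (standard error 0.12 each, adjusted p of 0.21 and 0.16 from limma), which share their shControl arrays. Without the shControl array of Molt4 they were −0.14 and −0.13. In Molt4 ID1 differed from shControl by −0.82 with shCREB3 and −0.71 with shCREB2, and in Jurkat by −0.21 and −0.28. ID3 had 0.31 for shCREB3 (standard error 0.26, adjusted p = 0.59) and −0.56 for shCREB2 (standard error 0.26, adjusted p = 0.21). Without the array of Nalm6 with shCREB2 the second value was −0.26 (adjusted p = 0.47). With shCREB2 ID3 differed from shControl by −1.06 in Nalm6, −0.81 in Molt4, −0.31 in Jurkat and −0.07 in RS4;11. ID2 had 0.02 for shCREB3 and 0.28 for shCREB2 (standard error 0.27 each), and the shCREB2 value was −0.14 without the array of Nalm6 with shCREB2. By the methods' t-test, paired by line, 2 members (TCF3 and TCF12) for shCREB3 and 1 (TCF12) for shCREB2 had an unadjusted p under 0.05, beside 15.8% and 14.2% of all genes, and 0 members passed after adjustment for either.

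The response of the T-ALL lines was not shown to differ from that of the BCP-ALL lines for any member. The test of the difference in response called 0 of 6 members and 0% of all genes in limma, while 2 members, ID1 and ID3, beside 4.33% of all genes had an unadjusted p under 0.05. The response in T-ALL minus that in BCP-ALL lines was −0.43 for ID3 (standard error 0.15) and −0.43 for ID1 (standard error 0.17), with an adjusted p of 0.975 for either (n = 2 lines each). For ID1 only the T-ALL lines had detection. Without RS4;11, with Nalm6 alone in the BCP-ALL arm and assumed to vary as the T-ALL lines do, ID2 passed with −0.69 (adjusted p = 0.038 from limma), as 1 of 256 genes called. In Nalm6 this rests on the shCREB2 array, since ID2 differed from shControl by −0.15 with shCREB3 and by 1.45 with shCREB2.

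The clearest differences of members lay between the 2 CREB shRNAs. TCF12, TCF3 and ID3 were higher with shCREB3 than with shCREB2, 3 of 6 members, beside 7.04% of all genes called in that direction and 14.7% called in either. TCF3, TCF12 and ID3 had higher signals with shCREB3 in 4 of 4 lines, as did 16.2% of all genes. TCF4 did so by number alone, since Jurkat (0.01) and RS4;11 (0.03) were without detection. TCF12 was 0.37 higher on the log2 scale (1.29-fold, standard error 0.05, 95% confidence interval 0.25 to 0.49, adjusted p = 0.0042 from limma). Its differences were 0.45 in Jurkat, 0.32 in Molt4, 0.36 in Nalm6 and 0.35 in RS4;11, the narrowest spread of the members.

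TCF3 was 0.50 higher (1.42-fold, standard error 0.13, 95% confidence interval 0.22 to 0.79, adjusted p = 0.028 from limma). The lines ranged widely for TCF3, from 0.09 in RS4;11 over 0.30 in Jurkat and 0.53 in Molt4 to 1.10 in Nalm6. ID3 was 0.87 higher (1.83-fold, standard error 0.26, 95% confidence interval 0.30 to 1.45, adjusted p = 0.048 from limma). The differences of ID3 were 0.38 in Jurkat, 0.51 in Molt4, 2.18 in Nalm6 and 0.43 in RS4;11, so Nalm6 lay far above the other lines. TCF4, measurable in Nalm6 (0.79) and Molt4 (0.27), did not pass (0.28, standard error 0.11, adjusted p = 0.12). ID1 had −0.02 (95% confidence interval −0.27 to 0.24) and ID2 had −0.26 (95% confidence interval −0.86 to 0.34), with adjusted p of 0.94 and 0.55.

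These calls depended on the lines and arrays in the fit. Without Jurkat or without Molt4, 0 members and 0 of 12480 genes passed for shCREB3 minus shCREB2, with adjusted p of 0.0701 and 0.0785 for TCF12, 0.10 and 0.15 for TCF3 and 0.12 and 0.13 for ID3. Without Nalm6 all 3 passed, and the difference was 0.30 for TCF3 (adjusted p = 0.032) and 0.44 for ID3 (adjusted p = 0.037). Leaving out only the array of Nalm6 with shCREB2 gave 0.34 for TCF3 (adjusted p = 0.026), 0.37 for TCF12 (adjusted p = 0.0042) and 0.57 for ID3 (adjusted p = 0.067). Only TCF12 passed without the shCREB3 or shCREB2 array of Jurkat or Molt4 or without the shCREB3 array of Nalm6. Over 26 settings TCF12 passed in 23, TCF3 in 17 and ID3 in 6, with a positive difference in each.

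**Figure D3:**
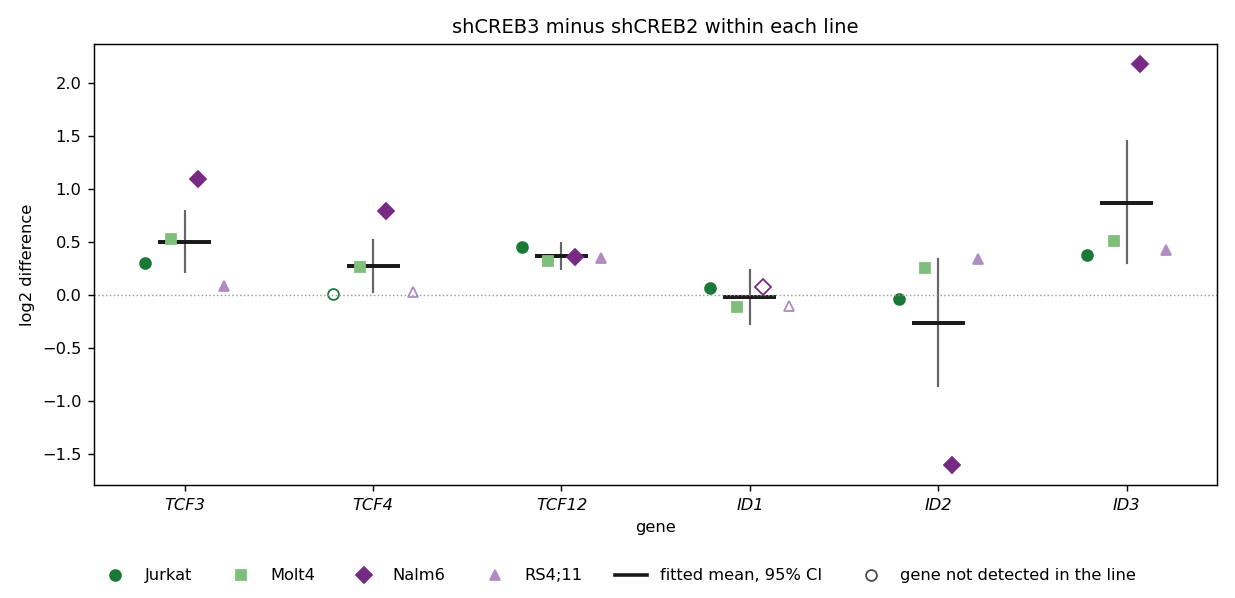
Log2 difference between the shCREB3 and the shCREB2 array of the same line (vertical axis) for each E-protein and ID gene. Symbols are the 4 lines (open where the gene was not detected in the line), short bars the fitted mean and vertical lines its 95% confidence interval. The 4 lines of TCF12 lie together at 0.32 to 0.45, whereas Nalm6 stands at 2.18 for ID3 and at −1.60 for ID2.

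Other probes of the members were compared where the arrays carried them. TCF12 had a second probe detected on 12 arrays, with a mean difference of 0.37 between shCREB3 and shCREB2 and 0.27 to 0.43 in the 4 lines. Another TCF12 probe was detected on 0 arrays. The second ID2 probe, also detected on 12 arrays, was 1.39 higher with shCREB2 than with shControl in Nalm6, against 1.45 for the brighter probe. The second ID1 probe was detected on 1 array and gave no measure. Each of TCF3, TCF4 and ID3 had 1 probe, so its values rest on that probe alone.

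Promoter windows of RefSeq (build GRCh38.p14, 250 bases before to 50 after a start) are shown for ID1 and for the members that differed between the shRNAs, because CREB binds the cAMP response element (CRE). The letters searched on both strands were TGACGTCA for the full CRE, TGACG for its first part and CANNTG for the E-box. Capitals mark TGACG or its reverse complement, and TCF12 is shown by the most upstream of its 5 windows.
ID1, chr20:31605039-31605338, plus strand: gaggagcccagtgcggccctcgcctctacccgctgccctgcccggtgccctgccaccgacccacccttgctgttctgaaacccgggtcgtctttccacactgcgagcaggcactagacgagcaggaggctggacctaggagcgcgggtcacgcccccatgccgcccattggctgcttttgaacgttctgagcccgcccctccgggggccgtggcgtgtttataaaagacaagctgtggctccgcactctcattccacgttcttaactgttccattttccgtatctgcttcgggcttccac
ID3, chr1:23559452-23559751, minus strand: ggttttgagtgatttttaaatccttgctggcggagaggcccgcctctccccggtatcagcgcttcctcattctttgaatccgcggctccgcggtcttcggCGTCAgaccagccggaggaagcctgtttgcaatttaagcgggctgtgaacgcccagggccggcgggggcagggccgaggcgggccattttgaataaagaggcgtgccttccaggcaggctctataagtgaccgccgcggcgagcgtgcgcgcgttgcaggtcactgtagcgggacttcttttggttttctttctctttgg
TCF3, chr19:1652566-1652865, minus strand: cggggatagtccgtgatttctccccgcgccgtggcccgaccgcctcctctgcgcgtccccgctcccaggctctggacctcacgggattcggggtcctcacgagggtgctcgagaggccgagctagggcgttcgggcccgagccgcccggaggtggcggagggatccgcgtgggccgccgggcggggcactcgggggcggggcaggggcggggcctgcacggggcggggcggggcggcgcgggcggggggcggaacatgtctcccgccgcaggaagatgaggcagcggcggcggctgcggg
TCF12, chr15:56917840-56918139, plus strand: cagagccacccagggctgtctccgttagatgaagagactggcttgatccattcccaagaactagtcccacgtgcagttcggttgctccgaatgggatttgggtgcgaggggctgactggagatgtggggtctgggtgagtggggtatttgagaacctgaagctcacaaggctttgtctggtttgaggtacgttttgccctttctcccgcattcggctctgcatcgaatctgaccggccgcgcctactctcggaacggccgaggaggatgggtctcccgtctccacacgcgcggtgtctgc

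The 6 genes had 19 such windows, 10 of them for TCF4. The full CRE stood in 0 of these 19 windows, beside 1.85% of 35116 windows of all genes. The shorter TGACG stood in 1 of 19, that of ID3, 150 bases before the start, beside 24.6% of all windows. An E-box stood in 10 of 19 windows (7 of TCF4, 2 of TCF12 and that of ID2), beside 68.7% of all windows. These are matches of letters, not measured binding.

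Correlations between members over the vectors were taken as a description. On values centred within each line (12 arrays, which share their normalization and lines), the Pearson correlation was 0.92 between TCF3 and ID3, 0.77 between TCF3 and TCF12 and 0.70 between TCF12 and ID3. ID2 ran the other way, at −0.69 with TCF3 and −0.71 with ID3. Without Nalm6 (9 arrays) these were 0.65, 0.82 and 0.73, and ID2 turned to 0.57 with TCF3 and 0.75 with ID3. TCF4, without detection on 6 of the 12 arrays, had 0.94 with TCF3, 0.85 with ID3 and 0.59 with TCF12, and without Nalm6, where 3 of 9 arrays had detection, 0.74, 0.09 and 0.44. ID1, also without detection on 6 arrays, had centred correlations with the other members between −0.19 and 0.30, or between −0.68 and 0.54 without Nalm6.

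The genes most like a member over the 12 levels, by Pearson correlation, were GIMAP4 and TIPRL for ID1 (0.993 and 0.990), TUBB2A and BACH2 for TCF4 (0.994 and 0.992) and SDSL and TBKBP1 for ID2 (0.983 and 0.982). For TCF12 they were PLCB2 and BIN1 (0.972 and 0.967), for TCF3 MAMDC4 and MTFR1 (0.968 and 0.953) and for ID3 BRCC3 and RAP1B (0.927 and 0.921). These levels mostly follow the 4 lines. Centred within lines, the genes most like a member were DIS3L and CORO6 for TCF3 (0.993 and 0.983), TTL and SOBP for TCF4 (0.990 and 0.988) and CCDC12 and HHEX for TCF12 (0.964 and 0.958). ID1 was most like FGD5 and NUPL2 (0.969 and 0.937), ID2 most like AXUD1 and C1ORF182 (0.989 and 0.971) and ID3 most like MTHFS and ASPM (0.972 and 0.968). The spread of ID2 and ID3 over vectors was widest in Nalm6 (standard deviation 0.88 and 1.09), so their centred correlations rest largely on that line. No correlation with these genes was taken without Nalm6. ID1 and TCF4 had detection on only 6 of the 12 arrays each.

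The genes around the network were counted in 8 lists of 84 genes, of which 62 were tested. Between shCREB3 and shCREB2, 7 were higher and 1 was lower (12.9%, close to the 14.7% of all genes). Against shControl, 1 was lower for both shRNAs averaged, 1 was lower for shCREB3, and 1 was higher and 3 lower for shCREB2 (6.45%, beside 8.12% of all genes). These shares are near those of all genes.

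**Figure D4:**
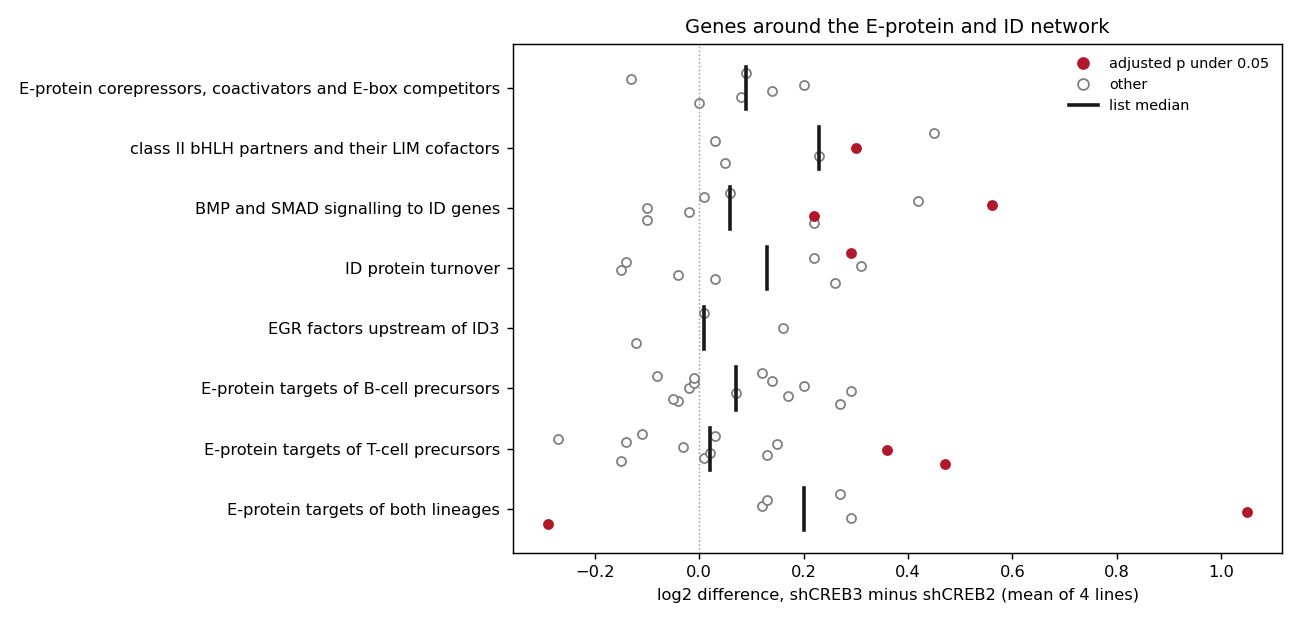
Log2 difference between shCREB3 and shCREB2 (horizontal axis, mean of 4 lines) of the 62 tested genes in 8 lists around the E proteins and ID inhibitors. Filled points passed at an adjusted p under 0.05 from limma, open points did not, and vertical bars are list medians, which lie between 0.01 and 0.23.

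Among the E-protein cofactors, 6 of 10 genes were tested. KAT2B, an acetyltransferase and coactivator, fell with shCREB3 by 0.38 on the log2 scale (standard error 0.06, adjusted p = 0.026 from limma) and with shCREB2 by 0.25 (adjusted p = 0.035). It was the only tested gene of the 8 lists called for the average of both shRNAs (−0.31, standard error 0.05, adjusted p = 0.046). Without Jurkat or Molt4 KAT2B did not pass for that average (adjusted p of 0.20 and 0.30), nor without the array of Nalm6 with shCREB2 (0.080). Of 5 tested class II partners and LIM cofactors, LMO4, a LIM-only adaptor, was 0.30 higher with shCREB3 than with shCREB2 (adjusted p = 0.033), and 0.24 higher without the array of Nalm6 with shCREB2 (0.060).

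The BMP and SMAD pathway that induces ID genes had 9 of 13 genes tested. SMAD5, a BMP-responsive SMAD, was 0.56 higher with shCREB3 than with shCREB2 (standard error 0.08, adjusted p = 0.0042 from limma), with 0.56 in Jurkat, 0.57 in Molt4, 0.82 in Nalm6 and 0.27 in RS4;11. BMPR2, a BMP receptor, was 0.22 higher (adjusted p = 0.033), and 0.18 without the array of Nalm6 with shCREB2 (0.062). The other 7 did not pass in this comparison, where 14.7% of all genes passed. Against shControl, 0 of 9 passed with either shRNA, beside 1.63% of all genes for shCREB3 and 8.12% for shCREB2. Of 8 genes of ID protein turnover, WDR48, the partner of the deubiquitinase USP1, which stabilizes ID proteins, was 0.29 higher with shCREB3 than with shCREB2 (adjusted p = 0.026). Of the EGR factors and their cofactors 3 of 5 were tested and 0 passed, too few to set beside the share of all genes. EGR1 had the largest averaged difference of that list (−0.10, adjusted p = 0.46).

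E-protein targets were counted by lineage. Of 13 tested targets of B-cell precursors, 0 passed in any shRNA comparison, beside 1.11% to 14.7% of all genes by comparison. A list this small cannot show that these targets differ from other genes or from the T-cell list. Of 12 tested targets of T-cell precursors, BCL11B, a factor of T-lineage commitment, was 0.47 higher with shCREB3 than with shCREB2 (standard error 0.09, adjusted p = 0.0089 from limma) and fell with shCREB2 against shControl by 0.33 (adjusted p = 0.046). Without the array of Nalm6 with shCREB2 these were 0.43 (adjusted p = 0.012) and −0.30 (0.083). It was detected on 6 T-ALL and 3 BCP-ALL arrays. GFI1, a repressor in early T cells, was 0.36 higher with shCREB3 than with shCREB2 (adjusted p = 0.031), and 0.30 without that array (0.053). PTCRA, the pre-TCR alpha chain, rose with shCREB2 by 0.47 (adjusted p = 0.030), and by 0.35 without the array of Nalm6 with shCREB2 (adjusted p = 0.036 from limma). It was detected on all arrays of Molt4 only, at 8.58 with shCREB2 and 7.98 with shControl. In Nalm6, with detection on 2 arrays, PTCRA was at 7.99 and 7.10. Jurkat and RS4;11 had detection on 1 array each.

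Of 6 tested targets of both lineages, DNTT, the polymerase TdT that adds bases at receptor gene joins, had the largest difference between the shRNAs among the tested list genes. Its log2 signal in Nalm6 was 13.31 with shCREB3, 11.40 with shCREB2 and 13.51 with shControl, and in Molt4 it was 11.20, 10.05 and 11.10 in the same order. In Jurkat DNTT was at 9.89 with shCREB3, 8.95 with shCREB2 and 9.52 with shControl, and in RS4;11 at 8.20, 7.99 and 8.29. The shCREB2 array was the lowest in each line. DNTT fell with shCREB2 by 1.00 on the log2 scale against shControl (standard error 0.24, adjusted p = 0.036 from limma) and was 1.05 higher with shCREB3 than with shCREB2 (adjusted p = 0.020). Without the array of Nalm6 with shCREB2 these were −0.68 (adjusted p = 0.021) and 0.73 (adjusted p = 0.0096). CDK6, a kinase of G1 progression that E proteins regulate, was lower with shCREB3 than with shCREB2 (−0.29, adjusted p = 0.032), with −0.24 (0.058) without that array. Without Jurkat or without Molt4, 0 of 12480 genes passed in any of these shRNA comparisons, the named list genes included, while DNTT kept a shCREB3 minus shCREB2 difference of 1.09 and 1.02 and SMAD5 one of 0.55 in either.

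Between T-ALL and BCP-ALL lines, 4 list genes were higher and 5 lower (14.5% of the 62, beside 1.05% of all genes), but the lists hold genes chosen for a lineage. The pre-B surrogate light chain gene IGLL1 was lower in T-ALL lines, with a log2 difference of −4.44 (standard error 0.17, adjusted p = 0.014 from limma). CD3D, a chain of the T-cell receptor complex, was 6.14 higher in T-ALL lines (adjusted p = 0.025) and BCL11B 3.42 higher (adjusted p = 0.027), each detected on 3 of 6 BCP-ALL arrays. IL7R, the receptor of the cytokine IL-7, was lower in T-ALL lines (−3.38, adjusted p = 0.015), although its list is that of T-cell precursors. It was detected on 5 of 6 T-ALL arrays. LYL1, a class II partner of E proteins, was lower in T-ALL lines (−3.81, adjusted p = 0.014), with levels of 7.04 to 7.31 in Jurkat and Molt4 and of 10.73 to 11.17 in Nalm6 and RS4;11. It was detected on 4 of 6 T-ALL arrays, 1 of them in Molt4, so the size of this difference rests partly on arrays without detection. Without Jurkat or without Molt4 the T-ALL arm held 1 line, and none of IGLL1, CD3D, BCL11B, IL7R and LYL1 passed. That held for all other genes too, and the signs stayed the same.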

How the data were processed

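Per the labels, total RNA of the 4 transduced lines was labelled with biotin and hybridized to Illumina BeadChips (HumanHT-12 v4 by the study's methods). The authors deposited raw probe signals beside a detection p-value for each, and also gene means that they had quantile-normalized, on a natural log scale. In the deposited signals, 98.057% of values had lost the decimal mark. It was restored from the gene means, and 85 of 47323 probes that stayed unsure were left out, none of a member. The 47238 signals were quantile-normalized and log2-transformed here without background subtraction. A gene was kept when 4 or more of the 12 arrays had a detection p-value below 0.01 for a probe, and its brightest probe stood for it (12480 genes).

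Differences were tested with limma 3.58.1 in R 4.3.3. The averaged shRNAs and the response used 4 line differences, single shRNAs used all 12 arrays with the line as a block, the lineages used 4 line means, and pairs of lines used all 12 arrays with the vector as a term. Pairing was by cell line, which same-numbered arrays share. Benjamini-Hochberg adjustment ran over all genes (and the 6 pairs of lines), with a threshold of 0.05. Members and gene lists were chosen with earlier results of these data known. Named genes were the members, the 2 genes most like each, CREB1, and from each list up to 2 called rises and 2 called falls of largest size or, where none passed, the largest averaged difference. The fits were run on simulated data with independent noise and added changes equal in all lines of a group. Such data do not mimic an array that stands apart or changes that differ between lines, so they do not bear on the calls above. Alternatives were median scaling, the deposited means, normexp with offset 16, 3 filters, the mean of probes, no replicate block, the 8 arrays compared, all 12 arrays in 1 fit, the methods' t-test, shControl arrays only, and each line or array left out. Signals were restored and plotted in Python 3.11.15 (matplotlib 3.10.9, numpy 2.4.6, pandas 2.3.3).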

Additional observations from a re-analysis of the deposited data

Results flagged for a closer look

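Over 24 groups of 4 line differences, 3 had a line far from the other 3 by Dixon's test, in each case Nalm6. Chance gives about 1 in 20 independent groups, but these groups share arrays, so that rate is no measure for them. ID3 was 2.18 higher with shCREB3 than with shCREB2 in Nalm6, against 0.38 to 0.51 in the other lines. ID2 was 1.45 higher with shCREB2 than with shControl in Nalm6, against −0.24 to 0.05 in the other lines. TCF4 differed by −0.38 between shCREB2 and shControl in Nalm6, against −0.0038 to 0.04 in the other lines. Of these, Jurkat and RS4;11 had no detection of TCF4 and could show no change, so this group cannot tell whether Nalm6 stood apart. The shCREB2 array of Nalm6, which enters all 3 values, is the array that stood apart from the others in its correlations.

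For ID3 with both shRNAs averaged, the signs differed between the lineages, with −0.12 in Jurkat and −0.56 in Molt4 against 0.03 in Nalm6 and 0.15 in RS4;11. The Nalm6 value averages 1.12 with shCREB3 and −1.06 with shCREB2, and with shCREB2 alone the lines lay at −1.06 to −0.07 for ID3. The difference in response was −0.43 and did not pass the test of the difference (adjusted p = 0.975 from limma, n = 2 lines each). Signs also differed for TCF4 with shCREB2, with a difference of 0.23 between the lineages, where only Molt4 and Nalm6 had detection and the difference was not tested.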

How the results depend on the processing

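The count of called members was 0 under every alternative for both shRNAs averaged. However, 0 of all genes passed with the deposited means, normexp, the mean of probes or no replicate block. The same held without Jurkat or Molt4 and in most fits without 1 array. In those fits the count of 0 members was fixed and tells nothing of the members. For shCREB3 minus shCREB2 it was 3, and 2 with the deposited means, normexp, detection on at least 1 array or no filter, where ID3 did not pass (adjusted p of 0.0553 to 0.0936), 0 with no replicate block (adjusted p of 0.52 for TCF3, 1 for TCF12 and 0.975 for ID3) or 1 with only the 8 arrays compared, and leaving out a line or an array gave 0 to 3. For shCREB3 minus shControl it was 1 with median scaling or only the 8 arrays compared, and 0 to 2 with a line or array left out. For shCREB2 minus shControl it was 1 with the deposited means, and 0 to 1 with a line or array left out. For the level between lineages it was 1 with normexp or in the shControl arrays only, and 0 to 1 without a line. For the difference in response it was 0 to 1 without a line, and for pairs of lines, 24 of 36, it was 11 to 29 without a line or array, where a line left out removes its pairs. The fit without the replicate block called 0 members in each shRNA comparison. It also called 0 of all genes there, or 4 for shCREB3 minus shCREB2.

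Some differences changed sign. With median scaling, ID1 had 0.01 for shCREB3 minus shCREB2 and TCF3 had −0.07 for Nalm6 minus RS4;11. Leaving out a line or an array gave, for both shRNAs averaged, −0.08 to 0.19 for TCF3, −0.04 to 0.16 for TCF4, −0.03 to 0.09 for TCF12, −0.05 to 0.35 for ID2 and −0.40 to 0.15 for ID3. For shCREB3 minus shControl it gave −0.15 to 0.27 for ID2 and −0.04 to 0.52 for ID3, and for shCREB2 minus shControl −0.14 to 0.06 for TCF4 and −0.14 to 0.45 for ID2. For shCREB3 minus shCREB2 it gave −0.07 to 0.09 for ID1 and −0.46 to 0.19 for ID2, and for the level between lineages −2.97 to 0.02 for TCF4 and −0.67 to 0.89 for TCF12. Between lines it gave −0.02 to 0.17 for ID1 in Nalm6 minus RS4;11, −0.06 to 0.81 for ID3 in Molt4 minus Nalm6, −0.04 to 0.09 for TCF3 in Jurkat minus Molt4 and −0.06 to 0.33 for TCF3 in Nalm6 minus RS4;11. The cause of these changes was not tested. With 1 array per line and vector, and no signal above background for ID1 in the BCP-ALL lines or TCF4 in Jurkat and RS4;11, changes there were not measurable.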
